A study of Mus musculus with 5 samples.

Results

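The 10 genes described here make and control polyamines from arginine in mouse macrophages, and were chosen by name: the arginases Arg1 and Arg2, the decarboxylase Odc1, its regulators Azin1, Oaz1 and Oaz2, the synthases Srm and Sms, the acetyltransferase Sat1 and the inducible nitric oxide synthase Nos2. They are 10 of 49246 genes with a value in the 5 RNA-seq libraries, and 8 of them are among the 10770 genes abundant enough to test. The libraries came from bone marrow-derived macrophages of wild-type C57BL/6 mice, differentiated for 6 days with CSF1 or with L929 cell supernatant, after which 96% stained for F4/80 and CD11b. In 3 libraries (replicates 3, 4 and 5) 30 µM CBR-5884 was given first. This compound inhibits PHGDH, the first enzyme of serine synthesis from glucose. Solvent was given in its place in the other 2 (replicates 3 and 5). All 5 then received 10 ng/ml IL-4 for 24 h, so the comparison is between IL-4 with inhibitor and IL-4 with solvent. No cells lacking IL-4 were analysed, and no value below shows what IL-4 itself did.

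Arginase splits arginine into ornithine and urea. Ornithine decarboxylase, encoded by Odc1, turns ornithine into putrescine, and the synthases extend putrescine first to spermidine and then to spermine. Antizymes bind ornithine decarboxylase and send it to the proteasome, antizyme inhibitor frees it by taking up the antizyme, and Sat1 acetylates spermidine and spermine for export or back-conversion. Nos2 uses the same arginine to make nitric oxide. In mouse macrophages IL-4 is known for inducing Arg1, and interferon with microbial products for inducing Nos2.

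Levels are given as FPKM, the fragments per kilobase of transcript relative to the depth of the library, summed over the transcripts of a gene, so that levels of different genes can be set side by side. Coverage in the files implied 28310000 to 30700000 fragments per library. Differences are log2 fold changes of FPKM + 1, CBR-5884 minus solvent, from limma, with a standard error (SE) and a 95% interval not adjusted for the number of genes, and a gene was called at a Benjamini-Hochberg adjusted p below 0.05 over all 10770 genes. By this rule 24 genes (0.223%) were called, 5 higher (0.0464%) and 19 lower (0.176%) with CBR-5884. The count was 89 without solvent replicate 3 and 66 without solvent replicate 5. At an unadjusted limma p below 0.05 there were 780 higher and 1334 lower genes (7.24% and 12.4%), a split that became 1170 to 1017 on a TPM scale, 1091 to 1003 with median ratio scaling and 1163 to 945 with quantile normalization. Whether replicates were separate cultures or animals is not in the labels, and p-values then measure only the spread between these libraries, which may be technical.

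None of the 8 tested members was called by limma. At an unadjusted p below 0.05 limma had 1 member higher with CBR-5884 (Azin1) and 3 lower (Arg1, Srm and Oaz2), 4 of 8 against 19.6% of all genes. Oaz2 lost that place under each other scaling. Among the fits without 1 CBR-5884 library, Srm lost it in that without replicate 5 (unadjusted limma p of 0.0501). Leaving out a solvent library leaves 1, whose spread is not measured, so those fits do not show whether Srm or Azin1 kept the place. Without solvent replicate 5 the log2 fold change was -0.35 for Srm and 0.35 for Azin1. Without solvent replicate 3 it was -0.50 for Srm and 0.44 for Azin1. The libraries of the groups did not overlap for 5 members: Azin1 was higher in every CBR-5884 library, and Arg1, Srm, Oaz1 and Oaz2 were lower in every one. Over all genes 41.5% had groups that did not overlap, 16.6% higher and 24.9% lower. The median log2 fold change of the 8 members was -0.13, beside -0.03 over all genes tested.

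**Figure D1:**
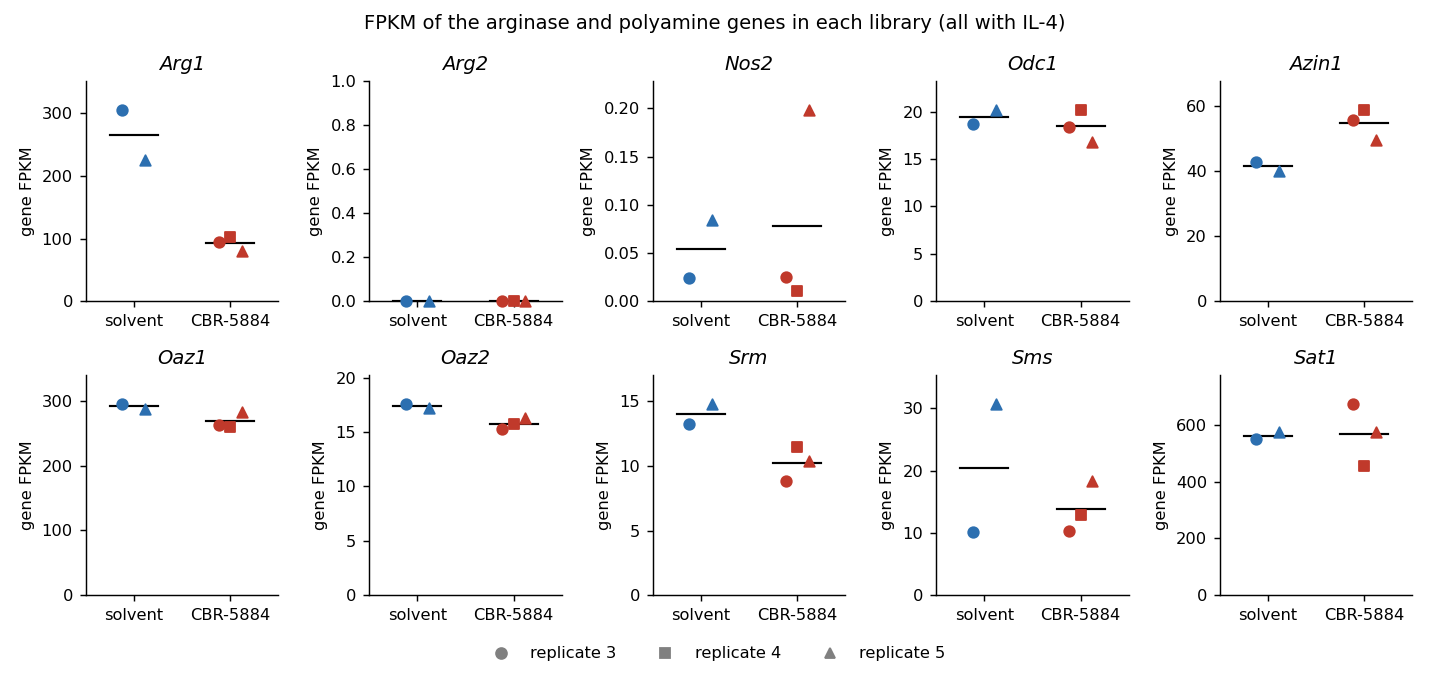
FPKM of each member in each library, with 1 point per library, marker shapes for replicates and a line for each group's mean; each panel has its own scale. For Arg1 every CBR-5884 point, 80.1 to 102 FPKM, lies below the solvent points at 225 and 305 FPKM, while the Odc1, Sms and Sat1 points of the groups overlap.

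Arg1 (ENSMUSG00000019987, chr10:24915221-24927484 on the minus strand, GRCm38), the cytosolic arginase, had the largest difference among the members. Its level was 94.2, 102 and 80.1 FPKM in CBR-5884 replicates 3, 4 and 5, and 305 and 225 FPKM in solvent replicates 3 and 5. Every CBR-5884 library thus lay far below both solvent libraries, and the 2 solvent libraries differed from each other by more than the 3 CBR-5884 libraries did. Mean levels were 92.1 ± 11.1 FPKM (SD, n = 3) and 265 ± 56.6 FPKM (SD, n = 2), so the solvent mean was 2.88 times the CBR-5884 mean. The log2 fold change was -1.51 (SE 0.17, 95% interval -1.97 to -1.04), with a limma p of 0.000573, the 71st smallest of 10770, and a Benjamini-Hochberg adjusted p of 0.086. This missed the threshold. Over 17 other ways of processing the values, the log2 fold change of Arg1 ran from -1.72 to -1.29 and the limma adjusted p from 0.0519 to 0.301.

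A single reference transcript of 1476 nt and 8 exons, ENSMUST00000020161, carried all of the Arg1 signal in every library. The FPKM stood for about 3631 to 4553 fragments in the CBR-5884 libraries and 9404 and 12990 in the solvent libraries. The 95% intervals that Cufflinks gives for its own estimates were 77.4 to 82.9 FPKM in the lowest CBR-5884 library and 220 to 230 FPKM in the lower solvent library, so counting error was small beside the spread between libraries.

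All 8 macrophage markers were above 1 FPKM in every group, with a summed level of 9743 to 13080 FPKM with CBR-5884 and 11010 to 13090 FPKM with solvent. These macrophage sums overlapped. The sums of 3 other lists were lower with CBR-5884 in every library, as Arg1 was. Over all genes tested, 24.9% were lower without overlap. Within these 3 lists Ly6c2, Vcan, Ccr7, Xcr1, Col1a2 and Col3a1 overlapped between the groups. The other markers of the 3 lists were lower in every CBR-5884 library. The 4 monocyte markers summed to 3.93 to 4.85 FPKM with CBR-5884 and 8.29 to 9.11 FPKM with solvent; only the receptor gene Ccr2 among them had a mean above 1 FPKM. For the 5 dendritic cell markers, none with a mean of 1 FPKM, the sums were 0.540 to 1.17 and 1.28 to 2.20 FPKM. The 4 fibroblast markers, of which Col1a1 and Col1a2 had a mean above 1 FPKM, summed to 10.3 to 16.7 and 17.4 to 18.6 FPKM. The part of these 3 lists in the Arg1 difference was not tested. The sums of the 7 neutrophil markers (10.4 to 12.9 and 10.0 to 20.7 FPKM), the 6 eosinophil, basophil and mast cell markers (5.13 to 10.2 and 5.196 to 9.63 FPKM) and the 3 B cell markers (0.0537 to 0.116 and 0.0441 to 0.0968 FPKM) overlapped between the groups. In such bulk libraries fewer cells of a type and less RNA per cell cannot be told apart. All 3 T and NK cell markers and all 3 erythroid markers were listed at 0 throughout, as were Ly6g of neutrophils and Epx of eosinophils. Other markers of the lists of Ly6g and Epx were not at 0. Over the 5 libraries S100a8 read 7.03 to 10.55 FPKM, S100a9 0.243 to 9.49 FPKM and Siglecf 4.73 to 10.1 FPKM.

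The genes whose pattern across the 5 libraries was closest to that of Arg1, by the root mean square difference of log2(FPKM + 1) values centred on each gene's mean, were Ube2c, Armc9, Cdc37l1, Cd163 and Mum1, with differences of 0.181, 0.188, 0.198, 0.207 and 0.212 on the log2 scale. Ube2c, a ubiquitin-conjugating enzyme of mitosis, read 0.514, 0.720 and 0.510 FPKM under CBR-5884 against 4.27 and 4.14 FPKM under solvent. Its log2 fold change was -1.72 (SE 0.12). Cd163, the haemoglobin scavenger receptor of macrophages, read 0.348, 0.498 and 0.536 FPKM under CBR-5884 against 3.04 and 1.82 FPKM under solvent. Ube2c and Cd163 were both below 1 FPKM in every CBR-5884 library. They reached the mean of 1 FPKM needed for testing only through the solvent libraries. For Armc9, Cdc37l1 and Mum1 the differences were -1.68, -1.28 and -1.40 on the log2 scale. All 5 genes were picked by their likeness to Arg1 in these same libraries, so lower levels with CBR-5884 follow from the choice. They are no separate support for the Arg1 difference, and no test is given for them.

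Arg2 (ENSMUSG00000021125, chr12:79130777-79156301, plus strand), the mitochondrial arginase, was listed at 0 in all 5 libraries and was not tested. For its transcript of 1428 nt, 3 fragments would have been 0.0684 to 0.0742 FPKM, which is the level a count of 0 allows at these depths, for counting error only. An exact 0 in such files can also be a failed estimate. On the other strand Vti1b, at 38.3 to 48.7 FPKM, shares 285 exonic bases with Arg2. Arg1 was thus the one arginase listed above 0. The coding sequences of the 2 arginases were identical at 612 of 955 aligned bases (64.1%), and no window of 75 bases, the read length, in either transcript occurs in another gene's transcript of GENCODE M21. Their longest shared run is 12 bases, shown in capitals within the coding stretch around it to make plain how far apart the genes are, from GENCODE M21 at chr10:24916786-24916827 (minus strand) and chr12:79150774-79150815 (plus strand).
Arg1: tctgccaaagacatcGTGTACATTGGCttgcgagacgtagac
Arg2: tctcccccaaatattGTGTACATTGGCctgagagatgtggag

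Nos2 (ENSMUSG00000020826, chr11:78920787-78960254, plus strand), the other user of arginine, was at 0.0256, 0.0106 and 0.199 FPKM in CBR-5884 replicates 3, 4 and 5 and at 0.0242 and 0.0839 FPKM in solvent replicates 3 and 5. These levels stood for about 3.27, 1.10 and 23.2 fragments and 2.40 and 8.14 fragments. The groups overlapped, and CBR-5884 replicate 5 held most of the fragments. Nos2 was below the mean of 1 FPKM needed for testing. When limma was run on all 20679 genes with any signal, it had a log2 fold change of 0.03 (SE 0.09, Benjamini-Hochberg adjusted p = 0.899). Arg1 RNA was thus far above Nos2 RNA in each library of both groups.

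**Figure D2:**
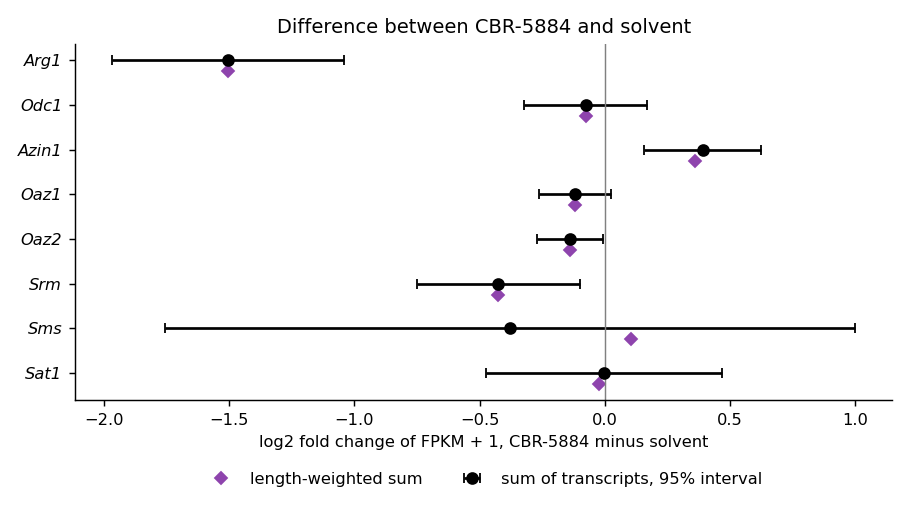
Log2 fold change of FPKM + 1 (CBR-5884 minus solvent) of the 8 tested members, with bars for the 95% interval and diamonds for a sum that weights each transcript by its length. The intervals of Arg1, Srm and Oaz2 lie below 0 and that of Azin1 above 0, before any adjustment for the number of genes.

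Odc1 (ENSMUSG00000011179, chr12:17544794-17551505, plus strand), the enzyme that commits ornithine to polyamines, read 18.4, 20.2 and 16.8 FPKM under CBR-5884 against 18.7 and 20.2 FPKM under solvent. The groups overlapped. On the log2 scale the difference was -0.08 (SE 0.09, 95% interval -0.32 to 0.17) and the limma Benjamini-Hochberg adjusted p was 0.678. It was -0.013 without CBR-5884 replicate 5, -0.024 without solvent replicate 5, -0.14 without CBR-5884 replicate 4, -0.13 without solvent replicate 3 and -0.034 on a TPM scale. Of the 75-base windows of its GENCODE M21 transcript, 650 of 2134 (30.5%) also occur in transcripts of 12 other genes. Reads from such windows could be split between those genes and Odc1, though the levels of those genes were at most 0.751 FPKM. The deposited Odc1 model, of 2547 nt, is longer than the transcript searched, so the share is not that of the deposited model.

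Azin1 (ENSMUSG00000037458, chr15:38487427-38519266, minus strand), the antizyme inhibitor, was the one tested member above its solvent level in every CBR-5884 library. It read 55.7, 58.8 and 49.6 FPKM under CBR-5884 against 42.7 and 40.1 FPKM under solvent. Mean levels were 54.7 ± 4.65 FPKM (SD, n = 3) and 41.4 ± 1.86 FPKM (SD, n = 2), a ratio of 1.32, and the gap between the groups was wider than the range of the solvent libraries but narrower than that of the CBR-5884 libraries. The log2 fold change was 0.39 (SE 0.09, 95% interval 0.16 to 0.63), with a limma p of 0.0086 and a Benjamini-Hochberg adjusted p of 0.147. Under 17 other settings it ran from 0.34 to 0.46 and the limma adjusted p of Azin1 from 0.0872 to 0.338.

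Azin1 was also the one member with more than 1 reference transcript at a mean of at least 1 FPKM. ENSMUST00000110329, of 4217 nt and 13 exons, read 29.5, 31.0 and 25.9 FPKM under CBR-5884 against 22.0 and 19.3 FPKM under solvent. ENSMUST00000110328, of 2556 nt and 12 exons, read 22.0, 27.8 and 20.1 FPKM under CBR-5884 against 17.2 and 16.002 FPKM under solvent. Both were higher in each CBR-5884 library than in either solvent library. In the fit over 12741 reference transcripts, of which limma called 0.518%, their log2 fold changes were 0.46 (SE 0.11, adjusted p = 0.312) and 0.45 (SE 0.16, adjusted p = 0.436). The share of Azin1 FPKM from the first was 52.1% to 53.1% with CBR-5884 and 48.0% and 51.5% with solvent, and from the second 39.5% to 47.3% and 39.9% and 40.3%. ENSMUST00000065308, of 4868 nt, read 4.15, 0 and 3.68 FPKM under CBR-5884 against 3.49 and 4.82 FPKM under solvent. Its 0 in CBR-5884 replicate 4 fell in the library where the share of the second was highest, and the difference was -0.82 on the log2 scale (SE 0.85, limma adjusted p = 0.731). Without that library it was -0.058, and with a pseudocount of 0.1 it was -1.84.

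**Figure D3:**
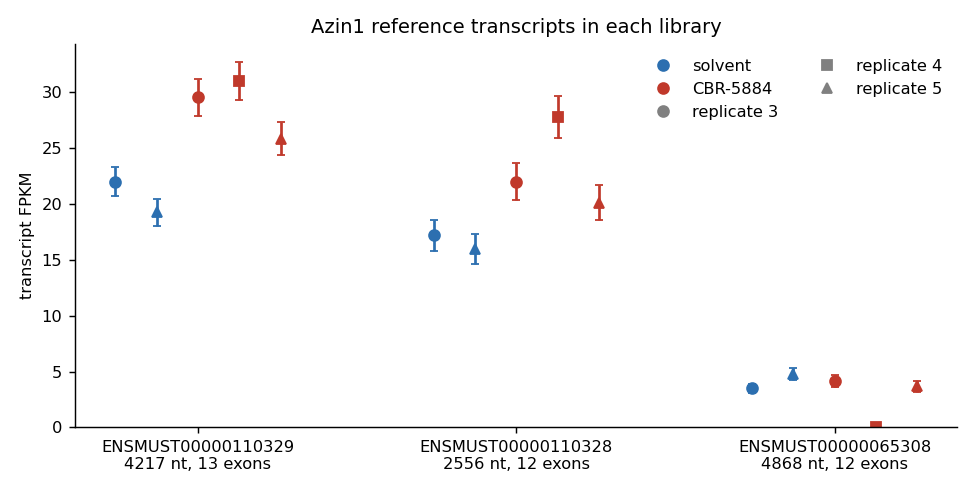
FPKM of the 3 Azin1 reference transcripts in each library, with bars for the 95% interval that Cufflinks gives. The 2 abundant transcripts are higher in all 3 CBR-5884 libraries than in both solvent libraries, and the 4868 nt transcript is listed at 0 in CBR-5884 replicate 4.

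The 2 abundant Azin1 models differ in their 5′ UTR, at their 3′ end and in length (4217 and 2556 nt). On the minus strand the 3′ end of ENSMUST00000110329 is at chr15:38488238 and that of ENSMUST00000110328 at chr15:38489454. ENSMUST00000110329 has an added 160-base exon at chr15:38507187-38507346, before the coding start. The ends and the exon given here do not account for all of the difference in length. Under the identifier ENSMUST00000110328, GENCODE M21 gives a structure other than the deposited one, and the values here are those of the deposited exons.

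Oaz1 (ENSMUSG00000035242, chr10:80826656-80829290, plus strand) was by far the more abundant antizyme. Its level was 263, 260 and 283 FPKM with CBR-5884 and 296 and 288 FPKM with solvent. All 3 CBR-5884 libraries lay below both solvent libraries, though replicate 5 by a narrow margin. Its log2 fold change stood at -0.12 (SE 0.05, 95% interval -0.26 to 0.03) and the limma Benjamini-Hochberg adjusted p was 0.32. Oaz2 (ENSMUSG00000040652, chr9:65668001-65690300, plus strand) read 15.3, 15.7 and 16.3 FPKM under CBR-5884 against 17.6 and 17.3 FPKM under solvent. Its groups were also apart, and its log2 fold change was -0.14 (SE 0.05, 95% interval -0.27 to -0.0064), with a limma p of 0.0434 and a Benjamini-Hochberg adjusted p of 0.245. Under other scalings both antizymes differed less. Oaz2 was at -0.087 with quantile normalization, -0.100 on a TPM scale and -0.101 with median ratio scaling (unadjusted limma p of 0.149, 0.120 and 0.0965), and Oaz1 was at -0.075 on a TPM scale. The unadjusted limma p of Oaz2 was also above 0.05 without CBR-5884 replicate 3, 4 or 5 (0.1065, 0.0970 and 0.0567). Its log2 fold change was -0.12 without solvent replicate 3 and -0.15 without solvent replicate 5. In Oaz1, 461 of 970 windows of 75 bases (47.5%) also occur in the pseudogene Oaz1-ps, which was at 0.658 FPKM or less. For Oaz2 the share was 108 of 1769 windows (6.11%).

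Antizyme protein is made only when ribosomes shift the reading frame by +1, an event that polyamines promote and that RNA abundance does not report. The coding sequences of the 2 antizymes were identical at 360 of 562 aligned bases (64.1%), and around the shift site they are closely alike. The stretch is shown from GENCODE M21 at chr10:80828268-80828325 (plus strand) for Oaz1 and chr9:65686245-65686302 (plus strand) for Oaz2. Each annotated transcript leaves out 1 genomic base at the site to keep the frame, and the capitals mark the last 3 bases before it and the first 2 after it.
Oaz1: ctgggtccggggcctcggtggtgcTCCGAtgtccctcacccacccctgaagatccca
Oaz2: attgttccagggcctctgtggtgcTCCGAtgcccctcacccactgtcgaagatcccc

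The ratio of Oaz1 to Odc1, 2 opposed members measured per length, was 14.3, 12.9 and 16.8 with CBR-5884 and 15.8 and 14.2 with solvent. These overlapped, with a difference of -0.04 in log2 ratio (two-sided exact permutation test, p = 0.9). The smallest p that 3 against 2 libraries allow is 0.1. The sign of that difference depended on single libraries, being 0.050 without CBR-5884 replicate 4 and 0.035 without solvent replicate 3.

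Srm (ENSMUSG00000006442, chr4:148591503-148594993, plus strand), which makes spermidine from putrescine, read 8.83, 11.45 and 10.4 FPKM under CBR-5884 against 13.2 and 14.8 FPKM under solvent. Every CBR-5884 library lay below both solvent libraries. The means were 10.2 ± 1.32 FPKM (SD, n = 3) and 14.0 ± 1.13 FPKM (SD, n = 2), a ratio of 0.729. The log2 fold change was -0.43 (SE 0.12, 95% interval -0.75 to -0.10), with a limma p of 0.0211 and a Benjamini-Hochberg adjusted p of 0.188, and ranged from -0.50 to -0.32 over the other settings. The FPKM of Srm stood for about 359 to 463 fragments with CBR-5884 and 511 and 562 with solvent.

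Sms (ENSMUSG00000071708, chrX:157443855-157492287, minus strand), which makes spermine, could not be given a firm level. The sum over its transcripts was 10.3, 12.8 and 18.3 FPKM with CBR-5884 and 10.1 and 30.8 FPKM with solvent, and the groups overlapped. In every library but CBR-5884 replicate 3, Cufflinks had assembled pieces of the gene, and a plain sum counts each piece like a whole transcript. Of the 30.8 FPKM in solvent replicate 5, 19.1 FPKM came from a piece of 270 nt. A piece of 86 nt in solvent replicate 3, listed at 1935 FPKM, fell under the minimum length of 200 nt and was left out. The plain sum gave a log2 fold change of -0.38 (SE 0.52, 95% interval -1.76 to 1.00, limma adjusted p = 0.711), and one of 0.38 without solvent replicate 5.

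The reference transcript of Sms alone read 10.3, 7.19 and 7.10 FPKM under CBR-5884 against 5.51 and 11.7 FPKM under solvent. A sum of Sms weighted by transcript length gave 10.3, 11.8 and 13.3 FPKM and 8.98 and 13.1 FPKM, closer together than the plain sum, with a log2 fold change of 0.11 (SE 0.18, limma adjusted p = 0.748). On each scale the groups overlapped. Windows of 75 bases shared with other genes made up 28.2% of the Sms transcript (1027 of 3643, all found in Sms-ps), but those genes were at 0.0678 FPKM or less. Srm and Sms, the 2 synthases, were identical at 526 of 876 aligned coding bases and share no run longer than 11 bases.

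Sat1 (ENSMUSG00000025283, chrX:155213132-155216449, minus strand), which acetylates spermidine and spermine, had the highest plain sum of the members in both groups. The sum was 675, 455 and 574 FPKM with CBR-5884 and 548 and 574 FPKM with solvent. CBR-5884 replicates 3 and 4 were the highest and the lowest of all 5 libraries, and both solvent libraries lay between them. The means were 568 ± 110 FPKM (SD, n = 3) and 561 ± 18.0 FPKM (SD, n = 2), and the log2 fold change was -0.001 (SE 0.18, 95% interval -0.47 to 0.47, limma adjusted p = 0.998). Its sign turned without CBR-5884 replicate 4 (0.15) and without solvent replicate 5 (0.03), and under other scalings (0.043 on a TPM scale, 0.038 with median ratio scaling and 0.055 with quantile normalization). The reference transcript alone read 388.1, 299.9 and 267 FPKM under CBR-5884 against 402 and 270 FPKM under solvent, and a sum of Sat1 weighted by length had a log2 fold change of -0.02.

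Beside the reference transcript, Cufflinks assembled in all 5 libraries a 3-exon piece of Sat1 of 1216 to 1294 nt. It read 166.7, 155.3 and 192.3 FPKM under CBR-5884 against 146.5 and 189.2 FPKM under solvent, and the groups overlapped. The piece covers the 3′ end of the gene and reaches 535 to 592 bases into the intron at chrX:155214135-155215600. In CBR-5884 replicates 3 and 5 and solvent replicate 5 a further piece, at 119.8, 114.6 and 114.9 FPKM, joins other bases of that intron to the 5′ exons. That intron holds an extra exon of 110 bases (chrX:155215121-155215230) in a further annotated transcript, which GENCODE M21 classes as a target of nonsense-mediated decay. Of the 3 further pieces, only that of CBR-5884 replicate 5 was spliced at the start of the extra exon. A regulated extra exon of this kind is known to limit Sat1 protein when polyamines are scarce. The end of that transcript's reading frame is shown because the exon stops it after 11 bases, at chrX:155215217-155215615 (minus strand, intron removed), with the stop codon in capitals.
Sat1 with extra exon: actggacccctgaaggttacagtctcTAG

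**Figure D4:**
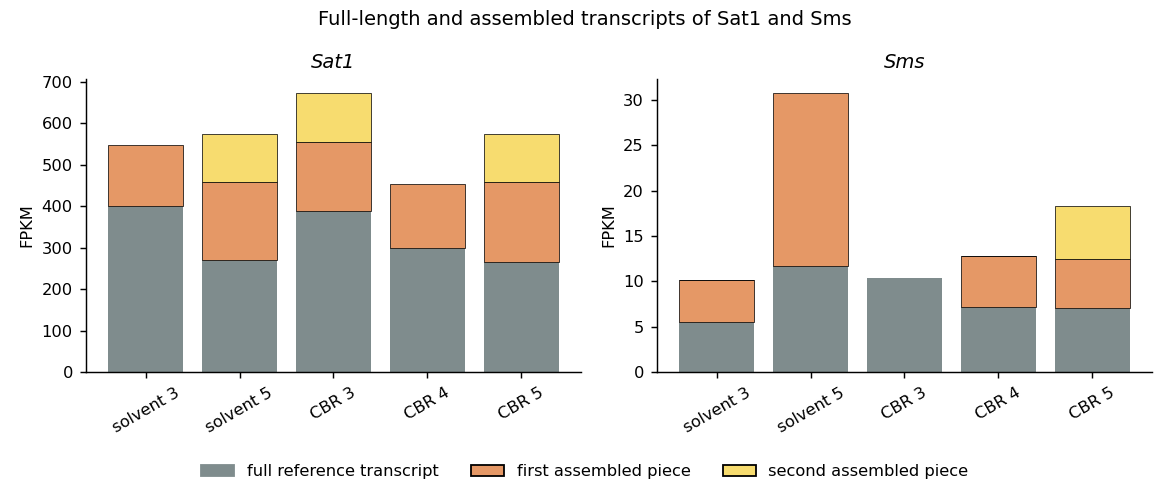
FPKM of Sat1 and Sms in each library, split into the reference transcript and the pieces assembled by Cufflinks. The piece of 270 nt in solvent replicate 5 gives 19.1 of the 30.8 FPKM of Sms there, and all 5 libraries hold a Sat1 piece of 146.5 to 192.3 FPKM.

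Set in order of mean level by the plain sum, the members ran Sat1, Oaz1, Arg1, Azin1 and then Odc1, Oaz2, Sms and Srm with CBR-5884. Arg1 and Oaz1 did not overlap there (80.1 to 102 FPKM against 260 to 283 FPKM). With solvent the Arg1 range of 225 to 305 FPKM enclosed the Oaz1 range of 288 to 296 FPKM, so their order could not be given. Azin1 lay below both in each group. Sat1 lay above both by the plain sum, but its reference transcript alone, at 267 FPKM in CBR-5884 replicate 5 and 270 FPKM in solvent replicate 5, was below Oaz1 in those libraries, so its order with Oaz1 depended on the assembled pieces. Odc1, Oaz2, Sms and Srm were within 8.83 to 30.8 FPKM over all 5 libraries, and Sms, with its wide spread, did not differ in rank from its neighbours beyond that spread. The ratio of Sat1 to Srm was 76.4, 39.8 and 55.1 with CBR-5884 and 41.4 and 38.7 with solvent, a difference of 0.46 in log2 ratio (two-sided exact permutation test, p = 0.3, and 0.6 after Benjamini-Hochberg adjustment over 2 ratios). Without CBR-5884 replicate 3 that difference was 0.22, and without CBR-5884 replicate 4 it was 0.70.

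RefSeq promoter windows, from 250 bases before to 50 after a start (GRCm38.p6), were matched for 5 members (Odc1, Oaz1, Oaz2, Sms and Sat1, 6 windows). A set of 4 motifs was searched on both strands. The STAT6 motif (TTC, then 4 bases of any kind, then GAA), named for the factor that IL-4 activates, occurred in 6.95% of 32851 promoter windows of that length, and in none of the 6. TGATGNAAT, bound by ATF4, occurred in 0.965% and in none of the 6. CACGTG, the E-box of MYC and MAX, occurred in 7.15% of all windows and in 1 of the 6, that of Sms. TGACNNNGC, bound by NRF2, occurred in 12.4% and in 1 of the 6, that of Oaz1. A match describes letters, not a bound site. The 2 matches are shown in capitals, 196 bases before the Sms start at chrX:157492453-157492508 (minus strand) and 13 bases before the Oaz1 start at chr10:80826618-80826655 (plus strand).
Sms: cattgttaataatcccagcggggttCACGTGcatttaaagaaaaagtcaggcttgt
Oaz1: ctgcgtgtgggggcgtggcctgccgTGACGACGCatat

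Around the members, 49 further genes of arginine, proline, polyamine, hypusine, methylthioadenosine and nitric oxide metabolism were listed, and 38 had a mean of at least 1 FPKM. None was called by limma at an adjusted p below 0.05. At an unadjusted limma p below 0.05, 4 were higher and 8 lower with CBR-5884 (12 of 38, against 19.6% of all genes), and the groups did not overlap for 8 higher and 12 lower genes (20 of 38, against 41.5%). Their median log2 fold change was -0.05. Of the 11 not tested, Otc, Agmat, Oaz3, Satl1 and Nos3 were listed at 0 in every library, and Amd2, Pycr1, Ddah1, Ddah2, Slc18b1 and Nos1 were below 1 FPKM.

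**Figure D5:**
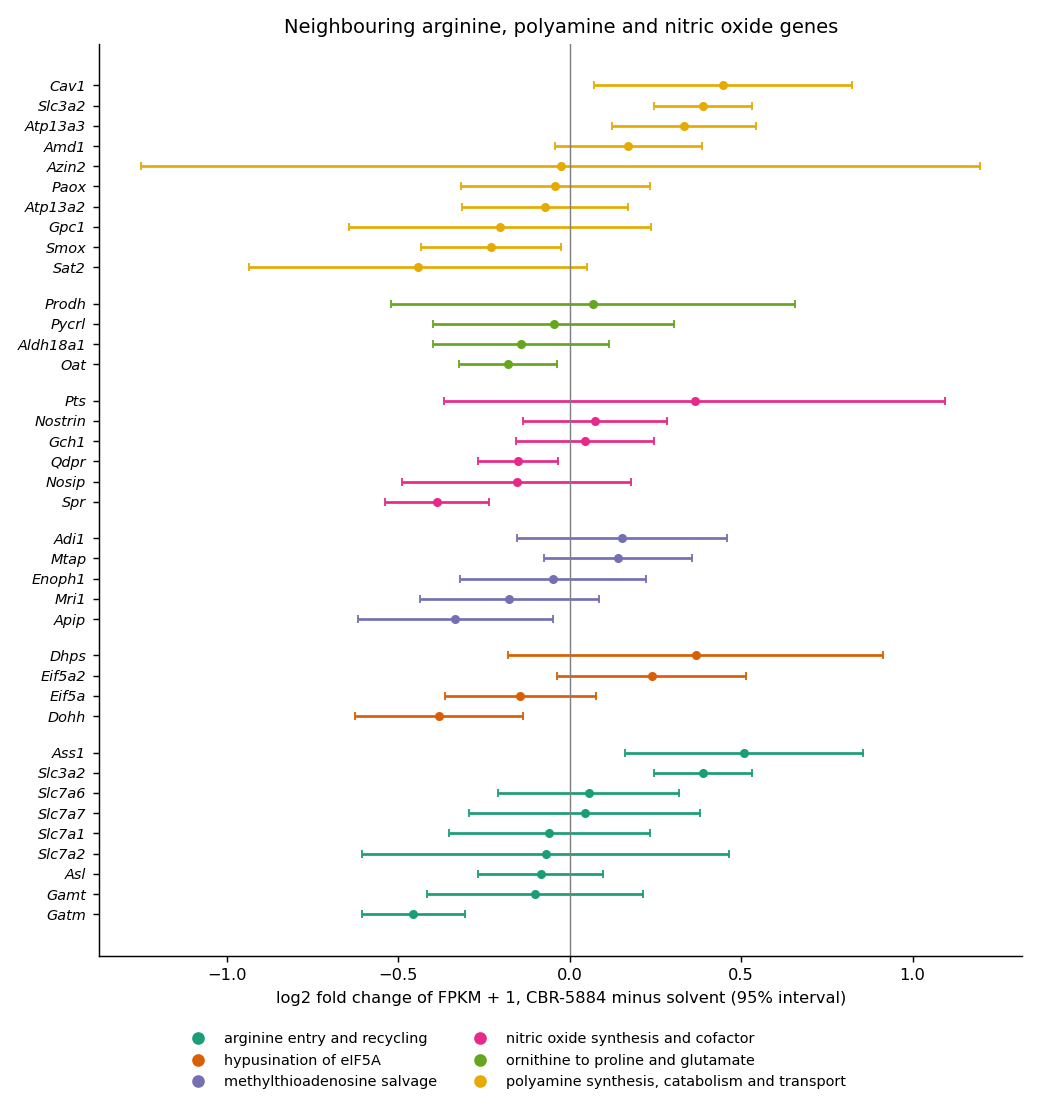
Log2 fold change of FPKM + 1 (CBR-5884 minus solvent) of 37 of the 38 tested pathway genes, coloured by list, with bars for the unadjusted 95% interval; Slc3a2 is drawn in both of its lists. The bars of 4 genes lie wholly above 0 and those of 7 wholly below, and none passed the adjusted threshold.

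Of 13 genes for arginine entry and recycling, 9 were tested, and an unadjusted limma p below 0.05 was found for 2 higher genes and 1 lower gene. Gatm, which takes arginine into creatine synthesis, read 74.2, 81.8 and 78.5 FPKM under CBR-5884 against 106.9 and 108.1 FPKM under solvent (log2 fold change -0.46, SE 0.06, limma adjusted p = 0.0917). Slc3a2, the heavy chain shared by several amino acid transporters, read 230.0, 232.0 and 220.0 FPKM under CBR-5884 against 179.5 and 167.4 FPKM under solvent (0.39, SE 0.05, limma adjusted p = 0.101). Both gaps were wider than the range within either group. Ass1, which rebuilds arginine from citrulline together with Asl, was at 39.6, 35.4 and 40.6 FPKM and at 30.3 and 23.5 FPKM (0.51, SE 0.13, limma adjusted p = 0.168). Asl itself overlapped between the groups, with a log2 fold change of -0.08 (limma adjusted p = 0.545). Slc7a2, a cationic amino acid transporter that brings arginine into macrophages, read 106, 96.6 and 74.4 FPKM under CBR-5884 against 109.6 and 84.0 FPKM under solvent, which also overlapped; it was named after its values were seen.

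Among 6 genes that lead ornithine to proline and glutamate, 5 were tested and 2 were lower at an unadjusted limma p below 0.05. Oat, which competes with Odc1 for ornithine, read 35.8, 38.4 and 37.7 FPKM under CBR-5884 against 41.4 and 43.3 FPKM under solvent. The difference was -0.18 on the log2 scale (SE 0.05, limma adjusted p = 0.195). Prodh, the first enzyme of proline breakdown, was the single gene of this list with a positive difference, and its groups overlapped (1.61, 1.96 and 2.64 FPKM against 1.48 and 2.40 FPKM).

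Of 14 further genes of polyamine synthesis, breakdown and transport, 10 were tested, and an unadjusted limma p below 0.05 was found for 3 higher genes (Slc3a2 again, Atp13a3 and Cav1, the last named after its values were seen) and 1 lower gene. Atp13a3, a polyamine-transporting ATPase, read 38.7, 36.0 and 33.0 FPKM under CBR-5884 against 28.6 and 27.8 FPKM under solvent (log2 fold change 0.33, SE 0.08, limma adjusted p = 0.155). Amd1, whose product supplies the aminopropyl groups that Srm and Sms use, read 8.86, 8.79 and 7.94 FPKM under CBR-5884 against 7.02 and 7.91 FPKM under solvent. It was thus barely apart between the groups (0.17, SE 0.08, limma adjusted p = 0.331), on the other side of solvent from Srm; it was named after its values were seen. Smox, the spermine oxidase, read 9.62, 9.95 and 10.9 FPKM under CBR-5884 against 11.5 and 12.6 FPKM under solvent (-0.23, SE 0.08, limma adjusted p = 0.224). Sat2, related to Sat1, had a log2 fold change of -0.44 (SE 0.19, limma adjusted p = 0.291) at means of 1.03 and 1.73 FPKM.

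Spermidine is also the donor for hypusine, the modified lysine of the translation factor eIF5A. All 4 genes of that list were tested, and Dohh, the second enzyme of the modification, was lower at an unadjusted limma p below 0.05. It read 15.4, 15.9 and 17.7 FPKM under CBR-5884 against 23.0 and 20.1 FPKM under solvent (log2 fold change -0.38, SE 0.09, limma adjusted p = 0.16). Dhps, the first enzyme, had a log2 fold change of 0.37 (SE 0.21, limma adjusted p = 0.395), with CBR-5884 replicate 4 well above the rest (27.3 FPKM, against 15.6 to 19.3 FPKM in the others). Eif5a and Eif5a2, the substrates, differed by -0.14 on the log2 scale (SE 0.08, limma adjusted p = 0.405) and by 0.24 (SE 0.10, limma adjusted p = 0.301).

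Methylthioadenosine, the by-product of both synthases, is returned to methionine by 5 listed genes, all tested. Apip was lower at an unadjusted limma p below 0.05, reading 13.6, 16.007 and 12.8 FPKM with CBR-5884 and 17.4 and 18.7 FPKM with solvent (log2 fold change -0.33, SE 0.11, limma adjusted p = 0.215). Mtap, which cleaves methylthioadenosine, and Adi1 differed by 0.14 and 0.15 on the log2 scale (limma adjusted p = 0.408 and 0.507), and Mri1 by -0.18 (limma adjusted p = 0.394). The groups of Adi1 overlapped, and those of Mtap and Mri1 did not.

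Nitric oxide synthases need tetrahydrobiopterin, and 6 of 8 genes of that list were tested, with 2 lower at an unadjusted limma p below 0.05. Spr, which completes tetrahydrobiopterin, read 16.7, 17.9 and 16.6 FPKM under CBR-5884 against 22.2 and 23.0 FPKM under solvent (log2 fold change -0.39, SE 0.06, limma adjusted p = 0.111). Qdpr, which recycles it, read 79.4, 76.9 and 79.2 FPKM under CBR-5884 against 88.9 and 85.6 FPKM under solvent (-0.15, SE 0.04, limma adjusted p = 0.19). Pts and Nostrin had positive differences of 0.36 and 0.07 with overlapping groups.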

How the data were processed

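RNA of 5 libraries was read as single 75-base reads from a directional kit, per the labels' protocols. The submitters' processing notes name Bowtie2, TopHat2, Cufflinks and mm10 (GRCm38). Tool versions, strand setting and annotation release: not given in the sources used here. The deposited FPKM values, with other attributes such as intervals and coverage, stand per transcript and separately by library, per the file contents, with no normalization between libraries recorded. Reference transcripts were assigned to genes by GENCODE M21 (99.5% matched per library). Transcripts assembled by Cufflinks went to the same-strand gene holding 50% or more of their exonic bases, and those under 200 nt were left out. Gene FPKM was their sum.

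Log2(FPKM + 1) was fitted for genes averaging 1 FPKM or more with limma 3.58.1 (R 4.3.3; eBayes with trend, two-sided) over all 5 libraries, with Benjamini-Hochberg adjustment over all genes tested; single reference transcripts were fitted likewise. The pseudocount of 1 understates changes of low genes. The fit was also run on simulated data, with spreads taken from the CBR-5884 libraries and drawn at random across genes. That does not check the fit where the solvent libraries vary more. A ratio of Arg1 to Arg2 was not formed because Arg2 is listed at 0. FPKM is not a count. The implied fragments, computed as deposited coverage times transcript length over the read length of 75 bases, are approximate. Intervals and floors cover counting error only.

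Members, gene lists and motifs were chosen with earlier results of these data known. Named genes are the members, the 2 genes of each list with the smallest unadjusted p in each direction, and the 5 genes nearest to Arg1 in pattern; 1 listed gene, counted with its list, is not reported by name here. The alternatives were other pseudocounts, filters, scalings and transcript sums, limma without a trend and leaving out each library. A replicate block was also run, on replicates 3 and 5 only. The length-weighted sum was added after seeing the data.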

Additional observations from a re-analysis of the deposited data

How the results depend on the processing

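No member or pathway gene was called by limma under any of the alternatives run, and Arg1, Azin1, Srm, Oaz1, Oaz2 and Odc1 kept their direction in all 17, though Oaz1, Oaz2 and Odc1 moved by over 1.5 times under some. The number of genes called over the whole table was 24 in the fit as reported. It was 38 with no filter on low values, 9 at a mean FPKM of at least 5, 39 with reference transcripts only, 63 with the length-weighted sum and 19 to 89 when 1 library was left out. The solvent libraries decided the upper end, with 89 without replicate 3 and 66 without replicate 5; there the lone solvent library is assumed to vary like the CBR-5884 libraries.

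The log2 fold change of Sat1 turned from -0.001 to 0.043 on the TPM scale, 0.038 with median ratio scaling and 0.055 with quantile normalization, and ran from -0.13 to 0.15 when 1 library was left out. That of Sms turned to 0.11 with the length-weighted sum and ran from -1.14 to 0.38 when 1 library was left out. The log2 ratio difference of Oaz1 to Odc1 ran from -0.14 to 0.050. The cause was not tested, except that the length-weighted sum gives short pieces less weight by construction.

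Replicate numbers 3 and 5 occur in both groups. Deviations of same-numbered libraries from their group means had r of 0.0702 and 0.0822 across 10770 genes. The 2 solvent libraries deviate by equal and opposite amounts, so these r are a weak guide to pairing. The main fit did not take the numbers as pairs. The replicate block used only replicates 3 and 5 of each group, so CBR-5884 replicate 4 was left out of it. With the block 3 genes were called, none of them a member. Arg1 had a log2 fold change of -1.58 (limma adjusted p = 0.301), Srm one of -0.50 (limma adjusted p = 0.321) and Sat1 one of 0.15. These log2 fold changes were the same without CBR-5884 replicate 4 and with no block, so their shift from the main fit came with the loss of that library. From the fit without CBR-5884 replicate 4 to the block, the SE fell for Arg1 (0.19 to 0.079) and Srm (0.11 to 0.066). It rose for Oaz1 (0.059 to 0.062) and Oaz2 (0.061 to 0.070). With 3 and 2 libraries, differences as small as those of Odc1, Oaz1 and Oaz2 could not be told from 0 after adjustment, Nos2 was too low to compare at this depth, and Arg2, listed at 0, gave no value to compare.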
